A study of Saccharomyces cerevisiae with 24 samples.

Results

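The SNR genes of budding yeast, Saccharomyces cerevisiae, encode the small nuclear RNAs of the spliceosome and the small nucleolar RNAs. They were taken as the nuclear genes whose standard name is SNR followed by a digit in the annotation of the reference genome (build R64, the sequence of sacCer3), and there are 81. Of these, 47 are box C/D genes, 29 are box H/ACA genes and 5 are spliceosomal snRNA genes. A region of the deposited table counted as theirs when it overlapped the gene or the 300 bp on either side by at least 1 bp and overlapped no tRNA gene. That gave 56 of 1711 regions, at 56 of 81 genes. A further 6 genes had only a region that lies on a tRNA gene, and 19 had none.

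Binding of Yrr1, a zinc cluster transcription factor that activates drug resistance genes, was measured by chromatin immunoprecipitation and sequencing (ChIP-seq). All cells were of strain S96, a laboratory strain, with its own YRR1 gene deleted (yrr1Δ), and carried a Myc-tagged YRR1 allele. The allele was YRR1_S96-I775E (the S96 allele with the amino acid change I775E), YRR1_YJM789 (the allele of strain YJM789) or YRR1_S96. Cells of each allele grew in YPD, a rich medium, with 4NQO (4-nitroquinoline-N-oxide, which damages DNA) at 0.25 µg/ml, or in YPD alone, in both cases for 2.5 h, which makes 6 groups. Each group has 3 ChIP libraries made with an anti-Myc antibody and 1 input library, 18 and 6 in all. The design text names triplicate cultures and the growth protocol a smaller number of replicated cultures, so the p-values rest on how libraries of a group vary, and part of that variation may be technical. No library from an untagged strain was analysed here, so signal that does not need Myc-Yrr1 cannot be told apart from binding.

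Small nucleolar RNAs guide chemical changes of ribosomal RNA. Box C/D RNAs direct methylation of riboses and box H/ACA RNAs direct conversion of uridine to pseudouridine, and a few of either kind, such as U3 and snR30, are needed to cut the ribosomal RNA precursor. Most yeast snoRNA genes are short, strongly transcribed units of RNA polymerase II with their own promoter, some lie in introns of protein-coding genes and some are transcribed together as a cluster, while SNR6 (U6) and SNR52 are made by RNA polymerase III. Tbf1 is known to bind the promoters of many snoRNA genes of this yeast.

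The deposited value of a region in a library is the rise, a coverage score of ChIP minus input: the score at the strongest point of the region with the average of the surroundings taken off. A second table gives the same quantity for input minus ChIP, here the reverse rise. The tables analysed hold no read totals. Depth is therefore unknown, and values carry no counting interval.

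At 4 SNR genes, at least 4 libraries had the summit of a MACS2 peak inside the gene, and the sequences under the signal are shown for 3 of them; the other, SNR190 with 5 of 6 summits inside, shares its peaks with SNR128. SNR63 (a box C/D guide RNA gene, YNCD0002C) had a peak in 4 libraries, all 4 with the summit inside the gene. SNR37 (a box H/ACA guide RNA gene, YNCJ0007C) had 7 of 7 summits inside, and SNR30 (YNCL0003W), the box H/ACA gene whose RNA is needed for processing of small-subunit ribosomal RNA, had 6 of 7. The lines give the RNA strand from 5′ to 3′ over chrIV:323217-323337 (minus strand), chrX:228187-228387 (minus strand) and chrXII:198850-199050 (plus strand), and a capital marks a base at which at least 1 library had its summit.
SNR63: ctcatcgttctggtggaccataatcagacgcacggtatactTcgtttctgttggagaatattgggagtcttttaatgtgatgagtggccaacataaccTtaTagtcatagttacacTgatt
SNR37: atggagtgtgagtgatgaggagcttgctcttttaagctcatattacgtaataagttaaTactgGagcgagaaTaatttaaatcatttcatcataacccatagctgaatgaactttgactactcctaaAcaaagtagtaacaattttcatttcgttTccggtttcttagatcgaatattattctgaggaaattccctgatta
SNR30: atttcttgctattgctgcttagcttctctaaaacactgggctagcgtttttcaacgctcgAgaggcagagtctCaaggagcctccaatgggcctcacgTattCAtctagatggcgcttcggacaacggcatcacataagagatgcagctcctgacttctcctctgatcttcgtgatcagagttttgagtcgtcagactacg
These are stretches of the transcribed RNA itself and not of the promoter before it.

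SNR48 (YNCG0026W), a box C/D methylation guide, had the highest mean rise of the 51 tested regions at SNR genes, and its region lies between SNR48 and ERG25. SNR52 region 2 lies mostly before SNR52 and had the highest mean rise among those regions in S96-I775E cells in YPD. For SNR48 the line covers chrVII:609834-610034 on the plus strand, with the matches to TCCGCG and TTACCCG in capitals. For SNR52 region 2 it covers chrV:431367-431527 on the plus strand, with the strongest points of the 3 S96-I775E libraries in YPD in capitals.
SNR48: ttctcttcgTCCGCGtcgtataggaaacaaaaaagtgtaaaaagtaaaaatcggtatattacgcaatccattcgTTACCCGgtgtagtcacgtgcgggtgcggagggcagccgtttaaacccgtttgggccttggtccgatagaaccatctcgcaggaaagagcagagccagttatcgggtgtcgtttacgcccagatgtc
SNR52 region 2: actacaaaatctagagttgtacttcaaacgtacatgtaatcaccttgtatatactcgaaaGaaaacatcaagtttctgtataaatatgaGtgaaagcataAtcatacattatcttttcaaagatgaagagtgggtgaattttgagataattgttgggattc
No match to any of the motifs searched lay in the 161 bases shown for SNR52 region 2.

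Motifs were counted on both strands of the 300 bases before each SNR gene and, with the same window, before each of 6002 nuclear protein-coding genes. The Yrr1 response element (YRRE) was found before 0 of 81 SNR genes and before 1.3% of protein-coding genes. Its core, TCCGCG or TCCGTG, was before 4 SNR genes (4.94%), against 8.48% of protein-coding genes. The Tbf1 letters AACCCTAA or AGCCCTAA were before 13 SNR genes (16.0%), against 1.23%, and the Reb1 letters TTACCCG before 11 (13.6%), against 7.9%. Reb1 is a general regulatory factor that binds many yeast promoters. A YRRE match that begins with T also holds a core match, so these counts overlap.

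The matches to the Tbf1 letters lay 27 to 283 bases before the gene, with a median of 166. Among single genes, neither intronic nor in a cluster, they were found before 12 of 56 (21.4%). They were found before 0 of 8 intronic genes and 1 of 17 genes in clusters. The match in a cluster lay before SNR41, the first gene of its cluster. The windows before later genes of a cluster need not hold a promoter, so these shares do not compare promoters between the arrangements. SNR46, a box H/ACA gene, had its match nearest to the gene, and SNR31 and SNR5, divergent box H/ACA genes, share 1 match between them, so the 13 genes have 12 matches. The lines cover the 150 bases before SNR46 (chrVII:545220-545369, plus strand) and before SNR5 (chrXV:842253-842402, plus strand), with the match in capitals.
SNR46: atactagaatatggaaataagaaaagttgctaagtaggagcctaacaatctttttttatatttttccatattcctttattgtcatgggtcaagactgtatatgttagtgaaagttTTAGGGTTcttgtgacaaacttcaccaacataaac
SNR5: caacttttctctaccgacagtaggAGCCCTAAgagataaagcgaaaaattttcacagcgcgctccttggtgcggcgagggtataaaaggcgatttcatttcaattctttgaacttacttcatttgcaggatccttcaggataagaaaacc
Of the 13 genes, 11 have a region. Within the 56 regions at SNR genes, 3 held a YRRE match (5.36%), against 4.2% of all 1692 nuclear regions, and 4 held a Tbf1 match (7.14%), against 3.13%. Per kb of sequence the YRRE matches numbered 0.0676 in the regions at SNR genes and 0.0624 in all nuclear regions. The regions with a YRRE match were those of SNR18 and SNR6 and SNR68 region 2, with the match 441, 261 and 108 bp from the middle of the libraries' strongest points.

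Regions were spread over all classes of SNR genes. They were found at 34 of 47 box C/D genes (72.3%), 18 of 29 box H/ACA genes (62.1%) and 4 of 5 spliceosomal snRNA genes (80.0%), where SNR19 (U1) had none. SNR7-L and SNR7-S (U5), which share their start and 1 region, count as 2 of these snRNA genes. By arrangement, 39 of 56 single genes (69.6%), 7 of 8 intronic genes (87.5%) and 10 of 17 genes in clusters (58.8%) had one. Of the 56 regions, 35 cover the SNR gene and 21 only its flank, and 39 also cover a protein-coding gene. The median region is 697.5 bp long and the median SNR gene 136 bp.

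Most strongest points of the libraries lay outside the SNR genes, counted over all 56 regions. Of 980 strongest points, 193 (19.7%) lay inside an SNR gene, and SNR genes make up 16.4% of the regions' bases. Inside a protein-coding gene, introns included, lay 403, and a point in an intronic SNR gene is counted in both numbers. In 7 regions at least 9 strongest points lay inside the SNR gene, and in 26 regions none did. The 21 regions that cover only the flank could hold none. The shares were not counted for the 35 covering regions alone, so they do not say whether points gather on the genes there. SNR6, the gene of U6 snRNA, had 11 of 18 inside, and the region of the cluster SNR128/SNR190 (SNR128 is U14) had 13 of 18. At SNR17A, one of the genes of U3, 7 of 18 lay inside.

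MACS2 peaks of ChIP above input were listed at 46 of 81 SNR genes in at least 1 library. A peak in 2 or more of a group's 3 libraries was listed at 20 SNR genes. By group these were 0 genes (S96-I775E, 4NQO), 4 genes (S96-I775E, YPD), 8 genes (YJM789, 4NQO), 0 genes (YJM789, YPD), 4 genes (S96, 4NQO) and 13 genes (S96, YPD). As SNR genes in a cluster can share 1 peak, the 4 genes of S96-I775E in YPD are 3 places and the 13 of S96 in YPD are 9. The totals of 46 and 20 were not counted over protein-coding genes, so they have no scale beside them.

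For the counts by group, the same count over 6002 nuclear protein-coding genes sets the scale. SNR genes with a peak made up 4.9% for the S96-I775E cells in YPD, against 0.566% of protein-coding genes, and 9.9% for YJM789 in 4NQO, against 4.98%. They made up 4.9% for S96 in 4NQO, against 0.85%, and 16.0% for S96 in YPD, against 0.65%. Where no SNR gene met the rule, the share of protein-coding genes was 0.433% (S96-I775E, 4NQO) and 0.117% (YJM789, YPD). The windows around SNR genes are shorter, with a median of 736 bp, against 1800 bp for protein-coding genes. No test was made of these shares, since SNR genes in clusters share peaks.

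**Figure D1:**
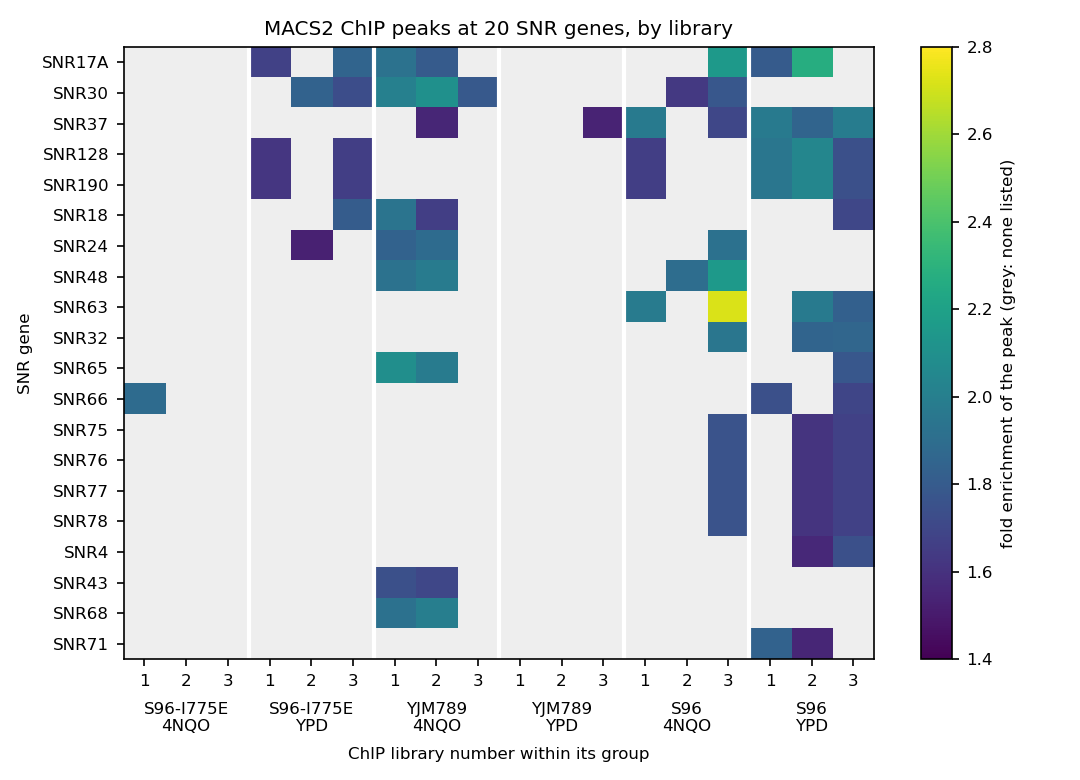
MACS2 fold enrichment (colour) of the ChIP peak at each of the 20 SNR genes with peaks in 2 or more of the 3 libraries of any group, for each of 18 libraries (columns, numbered within their group); grey means that no peak was listed. Peaks stand mainly in S96 in YPD, in YJM789 in 4NQO and in S96 in 4NQO, and the highest fold is 2.72 at SNR63.

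The counts rested on few libraries. The number of SNR genes with a peak was 1, 0 and 0 in the libraries of S96-I775E in 4NQO, 4, 3 and 9 in those of S96-I775E in YPD, and 12, 9 and 1 in those of YJM789 in 4NQO. It was 0, 0 and 1 for YJM789 in YPD and 6, 2 and 16 for S96 in 4NQO, while S96 in YPD had 6, 19 and 22. Library 3 of YJM789 in 4NQO thus listed 1 gene where the other libraries of its group listed 12 and 9. With 1 library of a group left out and a peak required in both others, the count without libraries 1, 2 and 3 was 1, 3 and 0 for S96-I775E in YPD, and 1, 1 and 8 for YJM789 in 4NQO. It was 2, 2 and 0 for S96 in 4NQO, while for S96 in YPD it was 10, 4 and 5.

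The genes shared between groups were few. SNR17A had a peak in 7 libraries of 4 groups, at 1.67- to 2.27-fold, and met the rule for S96-I775E in YPD, YJM789 in 4NQO and S96 in YPD. SNR30 had a peak in 7 libraries, among them all 3 of YJM789 in 4NQO at 2.01-, 2.1- and 1.79-fold. SNR37 had a peak in all 3 libraries of S96 in YPD at 1.97-, 1.85- and 1.99-fold and in 4 others at 1.54- to 1.97-fold. SNR128 and SNR190 shared a peak in 6 libraries, all 3 of S96 in YPD among them, with a highest fold of 2.04. SNR63 had the highest fold of any, 2.72 in library 3 of S96 in 4NQO, with 1.98 in library 1 and none listed in library 2. In all, 7 of the 20 genes met the rule in 2 or more groups.

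With the YJM789 allele in 4NQO the list of genes held 2 intronic ones. SNR18, in an intron of the translation factor gene EFB1, and SNR24, in an intron of the ribosome-bound protein gene ASC1, each had peaks in libraries 1 and 2 of that group and in 2 single libraries of other groups, and at neither did a summit lie inside the snoRNA gene. SNR18 had 1.94- and 1.66-fold there and SNR24 1.84- and 1.89-fold. SNR43, SNR65 and SNR68, a box H/ACA gene and 2 box C/D genes that stand alone, also met the rule there and in no other group, again with no summit inside the gene. SNR48 met it there and for S96 in 4NQO, at 1.9- to 2.16-fold.

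In S96 cells in YPD the list was longer. Beside SNR17A, SNR37, SNR63 and the SNR128/SNR190 pair, it held SNR32 (box H/ACA), SNR4 (box C/D), SNR66 and SNR71 (box C/D guides) and the cluster genes SNR75, SNR76, SNR77 and SNR78, which share a peak. The folds of the cluster were 1.61 and 1.67 in libraries 2 and 3. Over all 111 combinations of a gene and a library the fold ranged over 1.47 to 2.72 with a median of 1.76, against a median of 1.75 for all deposited peaks of this set, and 39 summits lay inside the SNR gene.

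The reverse test, input above ChIP, listed a peak at 4 SNR genes: SNR45 in 1 library of YJM789 in YPD and in libraries 2 and 3 of S96 in YPD, SNR17B in 2 libraries, and SNR14 and SNR48 in 1 each. For S96 in YPD, where SNR45 was the 1 SNR gene with a reverse peak in at least 2 libraries, 6.88% of protein-coding genes had one. CisGenome, which the authors ran per group under 4 settings, listed 16 peaks at 12 SNR genes. Of those, 2 had a false discovery rate below 1: 0.827 at SNR66 for S96-I775E in 4NQO and 0.987 at SNR24 for S96 in 4NQO. Over all 1041 CisGenome peaks, 127 had a rate below 1, a share like that at SNR genes.

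The rise at SNR genes was of ordinary size for the table. Its mean over all libraries had a median of 31.2 at the 51 tested regions, against 29.5 at 1341 tested nuclear regions. By group the median was 30.8 for S96-I775E in 4NQO, 28.2 for S96-I775E in YPD, 35.5 for YJM789 in 4NQO, 28.5 for YJM789 in YPD, 28.8 for S96 in 4NQO, while S96 in YPD had 29.5; that of all nuclear regions was 27.8, 26.2, 32.4, 27.4, 28.3 and 31.0 in the same order. Box C/D, box H/ACA and snRNA regions had medians of 30.9 (31 regions), 32.9 (16) and 29.9 (4), with ranges that overlap widely. The 5 regions without enough values to be tested are those of SNR47, SNR81, SNR9 and SNR17B and the flank region of SNR41, with 10 to 16 of 18 values.

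**Figure D2:**
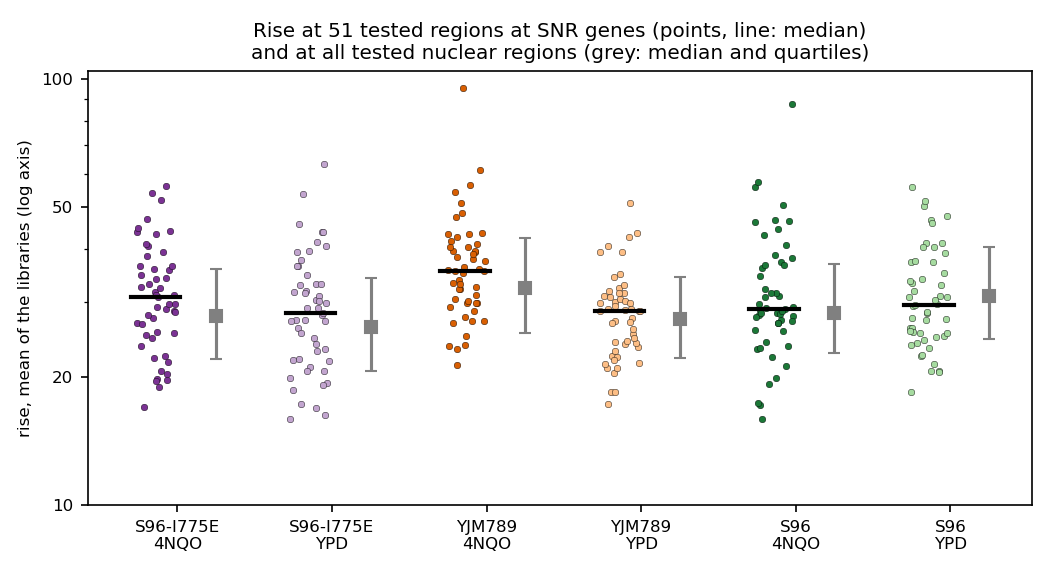
Mean rise over the libraries of a group (vertical log axis, coverage score of ChIP minus input) at each of the 51 tested regions at SNR genes (points; black line: median) and at all 1341 tested nuclear regions (grey square: median; bars: quartiles), for the 6 groups. The medians of both sets lie close together in each group. SNR48 stands highest in YJM789 in 4NQO, in S96 in 4NQO and, with 2 values, in YJM789 in YPD.

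The surroundings of the strongest point were compared as medians, with no test. The median of the surroundings, as ChIP minus input, was 18.4 at SNR genes and −10.5 at all nuclear regions for S96 in YPD, the group with the most SNR genes under a peak. It was 10.2 and 8.5 for S96-I775E in 4NQO, then 13.2 and 7.6 for S96-I775E in YPD, 10.2 and 11.4 for YJM789 in 4NQO, 8.8 and −2.1 for YJM789 cells in YPD, and 10.4 and 5.8 for S96 in 4NQO. The part of the surroundings in the peak counts was not tested.

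The rise and the reverse rise at SNR genes were of like size, with no test made. The mean rise exceeded the mean reverse rise at 26 of 51 regions for S96-I775E in 4NQO, 24 of 51 for S96-I775E in YPD, 26 of 51 for YJM789 in 4NQO, 20 of 51 for YJM789 in YPD, 22 of 50 for S96 in 4NQO, while S96 in YPD had 24 of 51. Over all tested nuclear regions the share was 46.8% to 51.1%. The median reverse rise at SNR genes, 29.2 to 33.6 by group, was close to the median rise of 28.2 to 35.5. For scale, the region before SNQ2, the gene of the pump that exports 4NQO, had mean rises of 166.1 to 242.0 and reverse rises of 72.8 to 95.8, and that in IRT1, a noncoding RNA gene, 98.9 to 342.4 and 50.9 to 120.9.

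**Figure D3:**
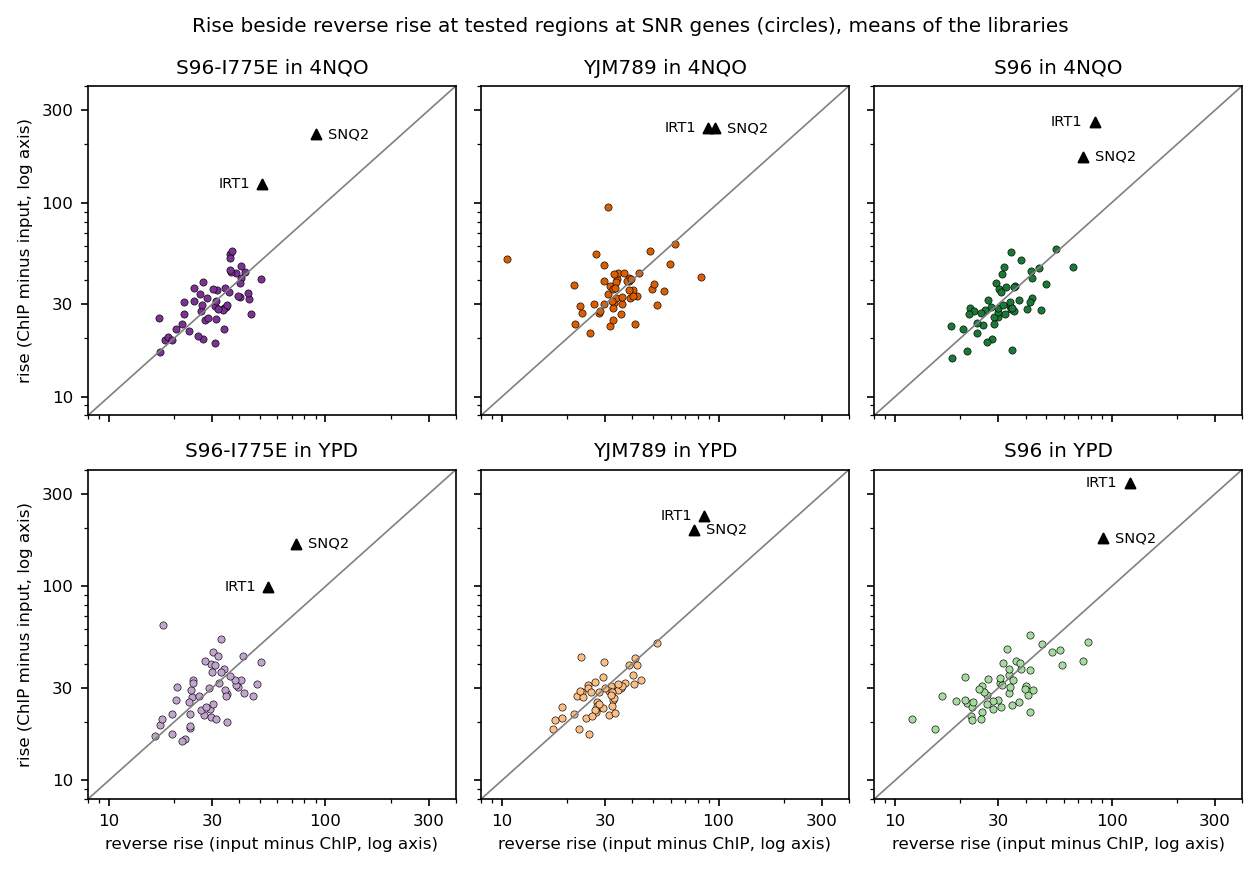
Mean rise (ChIP minus input, vertical log axis) against mean reverse rise (input minus ChIP, horizontal log axis) at the tested regions at SNR genes (circles), 1 panel a group, with the regions of SNQ2 and IRT1 as triangles and the line of equal values. The circles lie on both sides of the line, 20 to 26 of them above it in each group, while both triangles lie above it; SNR48 has no reverse rise for S96 in 4NQO and is not drawn there.

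The region of SNR48 ranked 30th of 1350 by mean rise (59.5). The rise was 45.1, 53.1 and 64 in S96-I775E cells in 4NQO and 50.3, 22.1 and 58.9 in YPD, and 130.9, 116.6 and 39.1 in YJM789 cells in 4NQO and 30.9 and 71.7 in YPD, with no value in library 3. It was 75.8, 91.4 and 94.8 in S96 cells in 4NQO and 30, 35.5 and 1.9 in S96 cells in YPD. The 3 drug-treated S96 libraries were all above the 3 in YPD. That difference passed the test at 2.56 ± 0.59 log2 units of rise + 1 (SE, n = 3 each; limma, adjusted p = 0.0137). The size rests on library 3 of S96 in YPD, without which it was 1.39 (limma, adjusted p = 0.0981), and the call was also lost without library 3 of S96 in 4NQO (limma, adjusted p = 0.0592). In the authors' m2 parameter set it was 0.35 (limma, adjusted p = 0.801), and the call was lost with empty values as 0 or only the compared groups (limma, adjusted p = 0.214 and 0.0665). At the strongest point itself, ChIP minus input was 77.7 ± 14.7 in S96 cells in 4NQO and 9.5 ± 6.6 in S96 cells in YPD (SD, n = 3 each). All 17 strongest points lay outside SNR48, at a median of 238 bp from it.

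The groups were compared with limma on log2(rise + 1) over all 1350 testable regions, with Benjamini-Hochberg adjustment in each comparison at 0.05, and each difference below is on that scale with its SE. Of the 51 tested regions at SNR genes, 11 passed in at least 1 of 12 comparisons. In the 9 comparisons of 2 groups there were 16 calls among 459 tests (3.49%), against 3.57% of all 12150 tests. Values of the 2 groups were fully separate in 23.7% of the tests at SNR genes, against 24.7% of all, and in 15 of the 16 calls. The share called at SNR genes was thus near that of the whole table. At the strongest point alone, on a linear scale since the score can be negative and chosen after seeing the data, YJM789 cells in 4NQO against YPD gave 19 called regions of 51 (37.3%), against 53.7% of all tested regions. With the rise itself on a linear scale that comparison gave 3 of 51, against 8.15%.

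**Figure D4:**
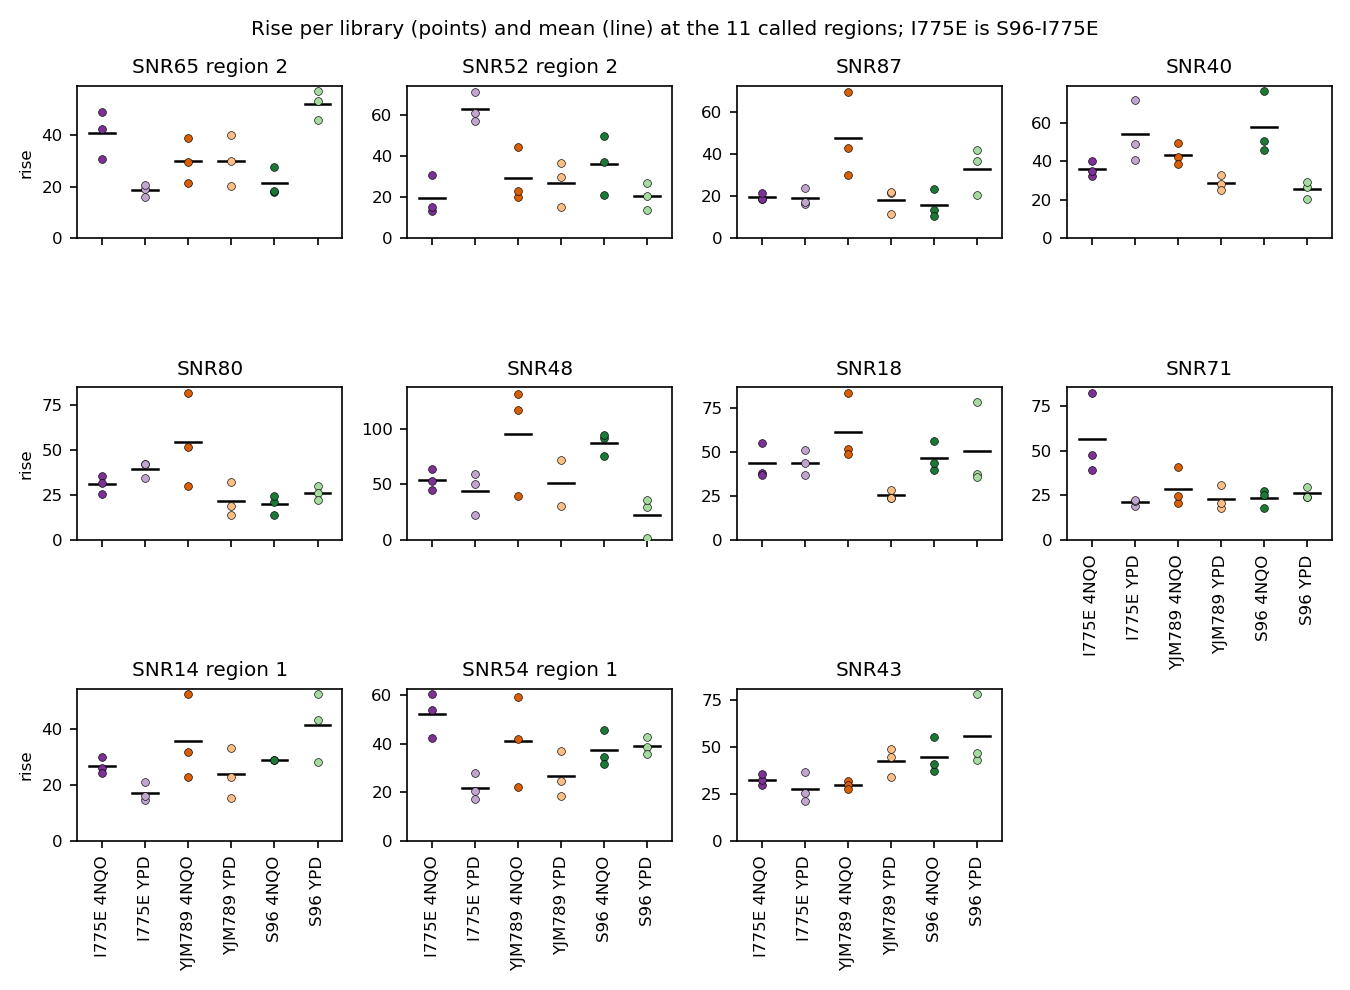
Rise (vertical axis, coverage score of ChIP minus input) in each ChIP library (points) with the mean of the group (line) at the 11 regions at SNR genes that passed in at least 1 comparison; the 6 groups stand along the horizontal axis. At SNR52 region 2 the 3 libraries of S96-I775E in YPD, at 57.1 to 71.3, lie above all others, and at SNR65 region 2 those of S96 in YPD, at 45.8 to 56.7, lie above nearly all.

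In YPD, the I775E change went with 5 called regions of 51, against 6.81% of all tested regions (S96-I775E against S96). They were SNR52 region 2 and SNR40, higher with I775E, and SNR65 region 2, SNR14 region 1 and SNR43, lower. The median difference was −0.17 at SNR genes and −0.24 over all regions.

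SNR52, the box C/D gene transcribed by RNA polymerase III, had the clearest value of S96-I775E cells. The rise at its region 2 was 61.0, 71.3 and 57.1 in S96-I775E cells in YPD and 13.9, 20.7 and 27.1 in S96 cells in YPD, without overlap (1.62 ± 0.39, limma, adjusted p = 0.0119). In 4NQO it was 13.4, 30.7 and 15.1 in S96-I775E cells, against the YPD values just given, a difference of −1.72 ± 0.39 (limma, adjusted p = 0.0168). In the other groups it was 44.4, 20.2 and 23.0 for YJM789 in 4NQO, 36.5, 15.1 and 29.7 for YJM789 cells in YPD, and 37.4, 50 and 21.0 for S96 in 4NQO. At the strongest point ChIP minus input was 68.4 ± 2.6 in S96-I775E cells in YPD and 43.5 ± 9.9 in S96 cells in YPD, and the surroundings were at 5.3 ± 7.3 and 22.9 ± 3.5 (SD, n = 3 each), so both parts of the rise differed. The allele difference was lost without library 1 of S96 in YPD (limma, adjusted p = 0.0573) and in the m2 set (limma, adjusted p = 0.0678). The drug difference was lost without library 1 or 2 of S96-I775E in YPD (limma, adjusted p = 0.0586 and 0.0597) and without library 1 or 3 of S96-I775E in 4NQO (limma, adjusted p = 0.0726 and 0.0749). MACS2 listed a ChIP peak here in only 1 of 18 libraries, of S96 in YPD.

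SNR65 is a box C/D gene, and its region 2 (chrIII:177393-178106) lies after it over the ribosomal protein gene RPS14A, which holds 13 of 18 strongest points. The rise was 19.2, 16.0 and 20.6 in S96-I775E cells in YPD, against 52.9, 56.7 and 45.8 in S96 cells in YPD, without overlap (−1.43 ± 0.31, limma, adjusted p = 0.00615). In 4NQO it was 30.5, 48.9 and 42.1 with S96-I775E, 29.5, 38.6 and 21.5 with YJM789 and 27.4, 18 and 18.2 with S96, and YJM789 cells in YPD had 20.4, 29.7 and 39.9. S96 cells in 4NQO were thus below S96 cells in YPD in every library (−1.27 ± 0.31, limma, adjusted p = 0.0232). ChIP minus input at the strongest point was 49.2 ± 5.3 in S96 cells in 4NQO and 56.9 ± 10.8 in S96 cells in YPD, with the surroundings at 28 ± 6.3 and 5.1 ± 7.6 (SD, n = 3 each), and tested at the strongest point alone, on the linear scale of the score, the difference was −7.73 score units (limma, adjusted p = 0.534). The drug difference was lost without library 1 or 2 of S96 in YPD (limma, adjusted p = 0.054 and 0.086) or library 2 or 3 of S96 in 4NQO (limma, adjusted p = 0.0897 and 0.0838), and the allele difference in the m2 set (limma, adjusted p = 0.111). MACS2 peaks in this region were listed in 2 libraries of YJM789 in 4NQO and 2 of S96 in 4NQO and in none of S96 in YPD, where the rise was highest.

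SNR40, a box C/D guide gene that stands alone (chrXIV:88977-89998), had a rise of 48.9, 40.8 and 71.7 in S96-I775E cells in YPD and 26.5, 20.4 and 29.2 in S96 cells in YPD (1.03 ± 0.28, limma, adjusted p = 0.0262). In 4NQO it was 32.5, 40.0 and 35.0 with S96-I775E, 49.2, 42.3 and 38.7 with YJM789 and 76.1, 50.5 and 46.0 with S96, and YJM789 cells in YPD had 33.0, 28.1 and 25.2. S96 cells in 4NQO were above S96 cells in YPD in every library (1.13 ± 0.28, limma, adjusted p = 0.0232). The strongest point itself differed little: it was 59.1 ± 16.6 in S96-I775E cells in YPD, 62.0 ± 19.1 in S96 cells in 4NQO and 56.7 ± 2.3 in S96 cells in YPD, while the surroundings were at 5.3 ± 8.9, 4.5 ± 18.6 and 31.3 ± 6.0 (SD, n = 3 each). Tested at the strongest point alone on the linear scale, the allele and drug differences were 2.43 and 5.3 score units (limma, adjusted p = 0.852 and 0.685). The allele call was lost without library 2 of S96 in YPD or library 1 or 3 of S96-I775E in YPD (limma, adjusted p = 0.106, 0.0542 and 0.134), and the drug call without library 2 of S96 in YPD or library 1 of S96 in 4NQO (limma, adjusted p = 0.114 and 0.107). In the m2 set the allele call was lost (limma, adjusted p = 0.162), and with only the compared groups both were (limma, adjusted p = 0.06 and 0.0683).

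The other 2 regions that were lower with I775E in YPD are at SNR14, the gene of U4 snRNA, and SNR43, a box H/ACA guide gene. At SNR14 region 1, in its flank and partly over TMA20, the rise was 21.2, 14.5 and 16.2 in S96-I775E cells in YPD and 43.2, 52.4 and 28.3 in S96 cells in YPD (−1.18 ± 0.34, limma, adjusted p = 0.0364). Strongest points there were at 12.4 ± 9.5 and 57.2 ± 19.9 (SD, n = 3 each), and none of 17 lay inside SNR14. At SNR43 it was 21.4, 25.6 and 36.9 in S96-I775E cells in YPD and 43.1, 46.6 and 78.2 in S96 cells in YPD (−0.96 ± 0.29, limma, adjusted p = 0.0435). Both calls were lost with 1 library left out: that of SNR14 region 1 without library 1 or 2 of S96 or 2 or 3 of S96-I775E in YPD (limma, adjusted p = 0.0879, 0.144, 0.103 and 0.0956), and that of SNR43 without library 2 or 3 of S96 or 1 or 2 of S96-I775E in YPD, or library 3 of YJM789 in YPD (limma, adjusted p = 0.071, 0.191, 0.147, 0.101 and 0.0504). In the m2 set the difference at SNR14 region 1 was −0.38 (limma, adjusted p = 0.649), and the call was lost too with empty values as 0, library medians equal or a linear scale (limma, adjusted p = 0.449, 0.0964 and 0.051). The SNR43 call was lost in the m2 set, with medians equal, at the strongest point alone and with only the compared groups (limma, adjusted p = 0.133, 0.135, 0.135 and 0.0879).

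In 4NQO, S96-I775E against S96 gave 0 called regions at SNR genes by limma, with 5 of 51 at an unadjusted p under 0.05, against 1.85% and 14.1% of all tested regions. The median difference was −0.03 at SNR genes and −0.03 over all regions. YJM789 against S96 in YPD likewise gave 0 calls, with 9 of 51 at an unadjusted p under 0.05, against 2.07% and 16.8% of all tested regions.

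In 4NQO, YJM789 against S96 gave 2 called regions of 51, against 3.41% of all tested regions: SNR87, a box C/D guide gene, and SNR80, a box H/ACA guide gene, both higher with the YJM789 allele. The rise at SNR87 was 30.2, 69.4 and 42.9 in YJM789 cells in 4NQO and 13.6, 10.7 and 23.3 in S96 cells in 4NQO (1.51 ± 0.36, limma, adjusted p = 0.015). At SNR80 it was 51.8, 29.7 and 81.5 in YJM789 cells in 4NQO and 21.3, 24.5 and 13.9 in S96 cells in 4NQO (1.33 ± 0.35, limma, adjusted p = 0.0261). Libraries did not overlap at either gene. At SNR80 the surroundings spread widely in YJM789 cells in 4NQO, at −0.4 ± 21.6, against 14.4 ± 8.6 in S96 cells in 4NQO (SD, n = 3 each). The SNR87 call was lost without library 2 of YJM789 or 1 or 2 of S96 in 4NQO (limma, adjusted p = 0.105, 0.0508 and 0.0712) and in the m2 set (limma, adjusted p = 0.384). That of SNR80 was lost without library 1 or 3 of YJM789 or 1 or 3 of S96 in 4NQO (limma, adjusted p = 0.088, 0.11, 0.0508 and 0.128). With empty values as 0 both calls were lost (limma, adjusted p = 0.0677 for each), as they were with only the compared groups (limma, adjusted p = 0.0717 at SNR87 and 0.116 at SNR80). That of SNR80 was also lost with library medians equal and at the strongest point alone (limma, adjusted p = 0.0769 and 0.0714).

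S96-I775E against YJM789 gave 0 called regions at SNR genes in either medium by limma. In YPD 6 of 51 had an unadjusted p under 0.05, against 2.15% called and 15.3% at that unadjusted p over all tested regions. In 4NQO there were 8 of 51, against 3.85% and 20.1%. The median difference at SNR genes was −0.04 in YPD and −0.19 in 4NQO, against −0.05 and −0.18 over all regions.

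The drug comparison with the YJM789 allele, 4NQO against YPD, gave 3 called regions of 51, against 6.81% of all tested regions, all higher in 4NQO: SNR18, SNR87 and SNR80. The median difference was 0.35 at SNR genes and 0.25 over all regions. At SNR18 the rise was 83.5, 51.5 and 48.8 in YJM789 cells in 4NQO and 23.6, 23.7 and 28.4 in YJM789 cells in YPD (1.21 ± 0.30, limma, adjusted p = 0.0142). The strongest points of this region lay in the host gene EFB1 in 16 of 18 libraries and in SNR18 in 1. The other groups had 38.0, 55.0 and 36.9 (S96-I775E in 4NQO), 36.8, 51 and 43.3 (S96-I775E cells in YPD), 39.7, 56.1 and 43.8 (S96 in 4NQO) and 37.6, 78.4 and 35.4 (S96 in YPD), so YJM789 cells in YPD were below every other library at SNR18.

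At SNR87, YJM789 cells in YPD had a rise of 21.6, 22 and 11.7, all below the drug-treated YJM789 libraries (1.29 ± 0.36, limma, adjusted p = 0.0308). At SNR80 they had 18.9, 32.1 and 13.8, and library 2 of each medium overlaps the other group (1.26 ± 0.35, limma, adjusted p = 0.0292). With library medians set equal all 3 calls were lost (limma, adjusted p = 0.0524 at SNR18, 0.11 at SNR87 and 0.111 at SNR80). Those of SNR87 and SNR80 were also lost in the m2 set (limma, adjusted p = 0.16 and 0.0521), with empty values as 0 (limma, adjusted p = 0.0826 and 0.0619) and with only the compared groups (limma, adjusted p = 0.0607 and 0.0936), and that of SNR80 at the strongest point alone (limma, adjusted p = 0.166). The SNR18 call was lost without library 1 of either medium (limma, adjusted p = 0.0532 for YPD and 0.101 for 4NQO), and that of SNR87 without library 3 in YPD or 2 in 4NQO (limma, adjusted p = 0.144 and 0.178). That of SNR80 was lost without library 1 or 3 of either medium (limma, adjusted p = 0.0784 and 0.119 for 4NQO, 0.0868 and 0.143 for YPD).

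With the S96 allele, 4NQO against YPD gave 3 called regions of 51, against 2.59% of all tested regions. They are those of SNR48 and SNR40, higher in 4NQO, and SNR65 region 2, lower, with the values given above. The median difference was −0.03 at SNR genes and −0.13 over all regions.

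With the S96-I775E allele the drug comparison also gave 3 called regions, against 2.59% of all tested regions. Beside SNR52 region 2, lower in 4NQO, they are SNR71, a box C/D guide gene, and SNR54 region 1, over the host gene IMD4 of the intronic box C/D gene SNR54, both higher. The rise at SNR71 was 82.3, 47.4 and 39.2 in S96-I775E cells in 4NQO and 19.2, 21.8 and 22.4 in YPD (1.3 ± 0.33, limma, adjusted p = 0.0273). At SNR54 region 1 it was 42.2, 60.4 and 53.7 in 4NQO and 20.7, 28 and 17.2 in YPD (1.22 ± 0.33, limma, adjusted p = 0.0397), with all 18 strongest points inside IMD4 and at least 289 bp from SNR54. Libraries did not overlap at either. The SNR54 call was lost without any 1 of the 6 libraries (limma, adjusted p = 0.0579 to 0.184), and that of SNR71 without any but library 3 in 4NQO (limma, adjusted p = 0.0521 to 0.164). At the strongest point alone on the linear scale SNR71 had a difference of 14 score units (limma, adjusted p = 0.485). SNR71 and SNR54 also lost their calls in the m2 set (limma, adjusted p = 0.159 and 0.12), with empty values as 0 (limma, adjusted p = 0.0869 and 0.109) and with only the compared groups (limma, adjusted p = 0.05 in both). That of SNR54 was lost as well with library medians equal, with no trend and at the strongest point alone (limma, adjusted p = 0.0515, 0.0555 and 0.0629), and that of SNR52 region 2 with empty values as 0 (limma, adjusted p = 0.0858).

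The test of whether the drug response differed between alleles called 1 region at SNR genes for YJM789 minus S96, against 3.93% of all tested regions. It is SNR87 (2.32 ± 0.51, limma, adjusted p = 0.014), where S96 cells had 13.6, 10.7 and 23.3 in 4NQO and 42.1, 36.7 and 20.8 in YPD, opposite to YJM789 cells. For S96-I775E minus S96 it called 3, against 2.59%: SNR65 region 2 (2.33 ± 0.44, limma, adjusted p = 0.00713), SNR52 region 2 (−2.47 ± 0.55, limma, adjusted p = 0.0154) and SNR40 (−1.67 ± 0.40, limma, adjusted p = 0.0214). Of these 3, SNR52 region 2 kept its call under each of the alternatives run. Tested at the strongest point alone, SNR65 region 2 and SNR40 lost theirs (limma, adjusted p = 0.415 and 0.276). For S96-I775E minus YJM789 it called 0, with 12 of 51 at an unadjusted p under 0.05, against 2.0% and 17.1% of all tested regions. The comparisons share groups, so the calls of 1 region in several of them are not independent.

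**Figure D5:**
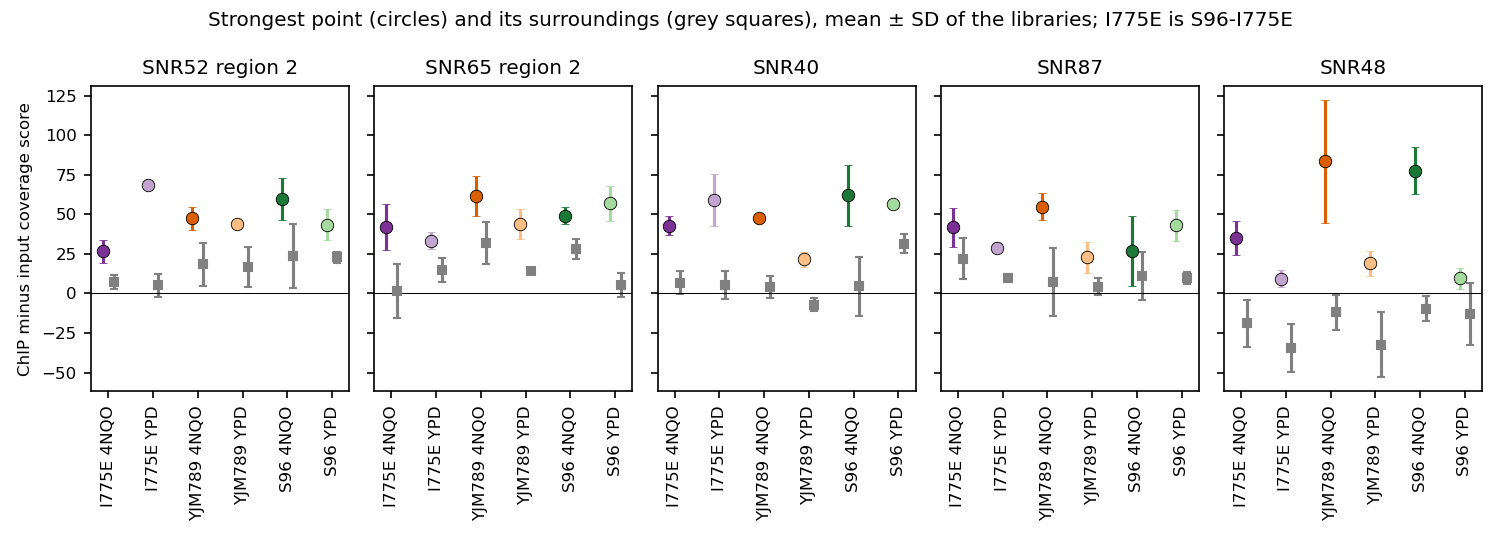
Coverage score of ChIP minus input (vertical axis) at the strongest point (circles) and over its surroundings (grey squares), mean ± SD of the libraries, at 5 regions at SNR genes in the 6 groups. The rise is the distance between circle and square; at SNR40 the circles of S96-I775E in YPD and S96 in YPD (59.1 and 56.7) are near each other and the squares (5.3 and 31.3) are not, while at SNR48 the circles move.

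Of the 10 regions with the highest mean rise, 5 were called in no comparison: those of SNR45, SNR128/SNR190, SNR32, SNR24 and SNR17A. At SNR17A, the U3 gene, the rise was 44.4, 42.1 and 45.7 for S96-I775E in 4NQO, 31.5, 35.7 and 28.4 for S96-I775E in YPD, 46.9, 35.9 and 37.9 for YJM789 in 4NQO, 31.9, 27.7 and 25.8 for YJM789 cells in YPD, 19.8, 31.2 and 41.5 for S96 in 4NQO, while S96 in YPD had 32.8, 66.8 and 21.5. In the same order SNR24 had 39.5, 28.5 and 41.2, then 22.4, 16.5 and 18.5, then 55.1, 35.3 and 40.1, then 20.7, 31.5 and 21.8, then 42.4, 60.4 and 64.8, and last 43.5, 40.3 and 28.4. The drug-treated libraries were above those in YPD at SNR17A and SNR24 with the S96-I775E and YJM789 alleles, without overlap. With the S96 allele they overlapped at both genes. None of these drug differences passed: they were 0.46 ± 0.33 and 0.48 ± 0.33 at SNR17A (limma, adjusted p = 0.513 and 0.44) and 0.89 ± 0.30 and 0.79 ± 0.30 at SNR24 (limma, adjusted p = 0.111 and 0.108) with S96-I775E and YJM789.

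SNR45, a box C/D gene whose region lies mostly over ASN1, had a rise of 32.8, 29.3 and 40.5 for S96-I775E in 4NQO, 28.5, 39.8 and 26.1 for S96-I775E in YPD, 50.4, 44.8 and 29.5 for YJM789 in 4NQO, 37.3, 38.1 and 42.8 for YJM789 cells in YPD, 43.6, 34.8 and 60.5 for S96 in 4NQO, while S96 in YPD had 48.7, 44.2 and 47.6. Its strongest point was at 18.2 ± 3.7 over surroundings of −21.2 ± 2.4 for YJM789 in YPD and at 23.0 ± 4.9 over −23.9 ± 3.9 for S96 in YPD (SD, n = 3 each), and in both groups MACS2 listed input above ChIP there in at least 1 library. SNR128/SNR190 had 30.6, 61.3 and 48.6, then 40.3, 46.6 and 35.1, then 26.3, 50.4 and 19.7, then 22.3, 24.9 and 40.6, then 56.5, 41.1 and 54.7, and last 27.4, 33.2 and 21.5 in the same order of groups. There the S96 cells in 4NQO had higher rises than S96 cells in YPD, without overlap, but the difference of 0.87 ± 0.34 did not pass (limma, adjusted p = 0.141). MACS2 peaks were listed in all 3 libraries of S96 in YPD, where the surroundings stood at 33.9 ± 3.5 (SD, n = 3). They were also listed in library 1 of S96 in 4NQO, at 1.66-fold, and in libraries 1 and 3 of S96-I775E in YPD. SNR32, over the ribosomal protein gene RPL42B as well, ranged over 22.2 to 51.4 across the 18 libraries.

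SNR6, the U6 gene, had no peak in 2 of 3 libraries of any group, and its mean rise was 29.7 ± 9.3 for S96-I775E in 4NQO, 41.4 ± 7.9 for S96-I775E in YPD, 40.3 ± 8.3 for YJM789 in 4NQO, 40.6 ± 8.1 for YJM789 in YPD, 27.8 ± 6.2 for S96 in 4NQO, with 25.6 ± 6.3 for S96 in YPD (SD, n = 3 each). The libraries of S96-I775E in YPD, at 32.3 to 46.7, were all above those of S96 in YPD, at 19.5 to 32.1, but the difference of 0.68 ± 0.31 did not pass (limma, adjusted p = 0.169), and none of the 12 comparisons called SNR6. The region of SNR7-L and SNR7-S (U5) had a rise of 16.7, 16.6 and 18.4 in S96 cells in 4NQO and 45.4, 26.7 and 33.3 in S96 cells in YPD, which did not pass (−0.96 ± 0.32, limma, adjusted p = 0.0938). Its response of YJM789 minus S96 was 1.51 ± 0.45 and did not pass either (limma, adjusted p = 0.0509). SNR14 region 1 was the only call among the spliceosomal genes.

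Genes of proteins of the same pathways and other noncoding RNA genes were looked up by the same rule, in a list of 31 genes. It holds snoRNP core proteins such as NOP1, assembly factors, processing and termination factors, and noncoding RNA genes such as RPR1, not all of which belong to those pathways. Of them, 13 had a tested region (14 regions). In 168 tests over the 12 comparisons 0 were called higher and 1 lower (0.595%), against 3.39% of all 16200 tests: NAB3, which encodes a termination factor of noncoding RNA transcription, in S96-I775E against YJM789 in 4NQO (−1.23 ± 0.34, limma, adjusted p = 0.041). In the m2 set that difference was 0.1 (limma, adjusted p = 0.954), and the call was lost with empty values as 0, library medians equal, the strongest point alone or only the compared groups (limma, adjusted p = 0.683, 0.106, 0.0855 and 0.108). It was lost as well without library 1 or 3 of S96-I775E in 4NQO or any library of YJM789 in 4NQO (limma, adjusted p = 0.0665 to 0.205). MACS2 peaks in at least 2 of 3 libraries of a group were listed at 5 of the 31: BCD1 (a snoRNP assembly factor), LSR1 (U2) and SCR1 (the RNA of the signal recognition particle) for YJM789 in 4NQO, NME1 (RNase MRP RNA) for S96 in YPD and RPR1 (RNase P RNA) for S96 in 4NQO. Of nuclear protein-coding genes, 4.98% (YJM789, 4NQO), 0.65% (S96, YPD) and 0.85% (S96, 4NQO) had such peaks. The region of NME1 is also that of SNR66, so it is counted in both lists.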

How the data were processed

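Yrr1 binding was measured by ChIP-seq in 18 ChIP libraries of 6 groups, with 1 input library a group. Per the submitters' processing notes, CASAVA 1.7, Bowtie2 2.2.3 and MACS2 2.1.0 were used and the build was sacCer3; the sources used here do not say which tool made which value. The authors deposited region tables whose rise, strongest point and surroundings are a coverage signal of ChIP minus input (or its reverse), used here as a score with no fixed range. Their parameter sets, mn and m2, are not explained, and mn was used. The authors deposited MACS2 peaks with a fold enrichment and a −log10 q-value of at least 1.3, called per library, and CisGenome peaks with a log2 fold and a false discovery rate. The tables give no read totals, and the rise is never negative and empty where no strongest point was listed, so lost values were not seen as low ones.

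The largest end listed on a chromosome lay within its R64 length except at 4 of 16 chromosomes, which it passed by at most 106 bp. A region needed 2 values or more in every group. The test was limma 3.58.1 in R 4.3.3 on log2(rise + 1), with trend over all 6 groups, for 12 comparisons; p-values were Benjamini-Hochberg adjusted per comparison. The fit was checked on simulated data. Named regions are those called, those with the 10 highest mean rises and SNR genes with peaks in at least 2 of 3 libraries of a group. The members and the lists were chosen with earlier results of these data known. Alternatives were another parameter set, pseudocount, filter, flank, scale, scaling, design and peak threshold, and leaving out each library; the strongest point alone was added after seeing the data.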

Additional observations from a re-analysis of the deposited data

Results flagged for a closer look

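At 4 regions at SNR genes the response to 4NQO differed between alleles by the test of that difference itself (log2 of rise + 1). At SNR87 the response of YJM789 minus that of S96 was 2.32 (limma, adjusted p = 0.014); it was 1.21 in the m2 set and 1.97 with library medians set equal (limma, adjusted p = 0.276 and 0.0653). For S96-I775E minus S96 it was 2.33 at SNR65 region 2 (limma, adjusted p = 0.00713), −2.47 at SNR52 region 2 (limma, adjusted p = 0.0154) and −1.67 at SNR40 (limma, adjusted p = 0.0214). At SNR40 the call was lost in the m2 set (limma, adjusted p = 0.105), without library 2 of S96 in YPD or 1 of S96 in 4NQO (limma, adjusted p = 0.0673 and 0.062), and without library 3 of S96-I775E in YPD or 1 of S96-I775E in 4NQO (limma, adjusted p = 0.085 and 0.0564).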

How the results depend on the processing

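Of the 20 named differences at SNR genes, none reversed under any alternative run, but only 1 kept its call in every one. Counts of called regions at SNR genes are given for YJM789 against S96 (YPD, 4NQO, response difference), S96-I775E against S96 (the same), S96-I775E against YJM789 (the same), 4NQO against YPD (YJM789, S96, S96-I775E), and the pathway list, only where they moved by over 1.5 times; the cause was not tested. At the strongest point alone on a linear scale, chosen after seeing the data, they were 4, 9 and 2 for YJM789 against S96 (over all tested regions 11.3%, 30.2% and 8.0%), 12 and 2 (YPD, 4NQO) for S96-I775E against S96 (37.7% and 5.85%), 4, 7 and 10 for S96-I775E against YJM789 (8.37%, 15.3% and 27.5%), 19 and 11 for the drug with YJM789 and S96 (53.7% and 33.7%), and 45 of 168 tests for the list (20.2% of all tests). In the m2 set YJM789 against S96 gave 1 in 4NQO and 0 for the response, S96-I775E against S96 gave 2 in YPD and 1 in 4NQO, the response of S96-I775E minus YJM789 gave 1, the drug with S96-I775E 1 and the list 5. With empty values as 0, YJM789 against S96 in 4NQO, the drug with S96-I775E and the list gave 0. With library medians equal, YJM789 against S96 gave 1 in 4NQO and 0 for the response, S96-I775E against S96 3 in YPD and 1 in 4NQO, S96-I775E against YJM789 1 in 4NQO, and the drug with YJM789 and the list 0. A pseudocount of 5 gave 3 for the YJM789 minus S96 response and 2 for the list. The linear scale gave 2 for that response, 1 for S96-I775E against S96 in 4NQO, 1 and 2 against YJM789 in YPD and 4NQO, and 1 for their response (over all tested regions 5.19%, 1.93%, 1.33%, 6.15% and 2.0%). Only regions with all 18 values gave 3, 1 (S96-I775E against S96 in 4NQO) and 0 (list). With only the compared groups, YJM789 against S96 in 4NQO gave 0, S96-I775E against S96 in YPD 3, against YJM789 in YPD 1, the drug 1 with each allele, and the list 0. Apart from the linear scale and the strongest point alone, the share over all tested regions was not counted for the changed fits, here and below. A moved count there cannot be told from a move of the whole table.

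The replicate block gave 1 for S96-I775E against S96 in 4NQO and 0 for the list; it ended the calls of SNR54 region 1 (limma, adjusted p = 0.0529) and NAB3 (limma, adjusted p = 0.0532), and no other named one. The protocol splits each culture into a drug and a drug-free subculture but does not tie the library numbers to cultures. Same-numbered libraries of an allele correlated at −0.066 to 0.07 in their deviations from the group means. Such low values cannot show whether libraries share a culture, so the pairing is unknown. With the gene alone and no flank, S96-I775E against S96 in YPD gave 3 and the drug with S96 1; genes with peaks were 11 in all, 1 for YJM789 in 4NQO and 2 for S96-I775E in YPD. Genes with peaks of at least 2-fold were 1 in all, 1 for YJM789 in 4NQO and 0 for S96-I775E in YPD, S96 in 4NQO and S96 in YPD, and at a −log10 q of at least 5, 0 in all and in each. In at least 1 library there were 46 in all, 1 for S96-I775E in 4NQO, 12 for S96-I775E in YPD, 13 for YJM789 in 4NQO, 1 for YJM789 in YPD, 20 for S96 in 4NQO, while S96 in YPD had 31; in all 3, 4 in all, 0, 1, 0 and 3 for S96-I775E in YPD, YJM789 in 4NQO, S96 in 4NQO and S96 in YPD. Under these other peak rules protein-coding genes were not counted.

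With 1 library left out, counts were 0 to 2 for YJM789 against S96 in 4NQO, 0 to 0 in YPD and 1 to 3 for the response; 2 to 5 for S96-I775E against S96 in YPD, 0 to 1 in 4NQO and 2 to 3 for the response; 0 to 0 for S96-I775E against YJM789 in either medium and 0 to 1 for the response; 1 to 3 for the drug with YJM789 and S96, 0 to 4 with S96-I775E; and 0 to 4 for the list. Genes with peaks were 13 to 20 in all, 0 to 3 for S96-I775E in YPD, 1 to 8 for YJM789 in 4NQO, 0 to 2 for S96 in 4NQO, while S96 in YPD had 4 to 10. The number of SNR genes with a region stayed within 1.5 times under each alternative run. Depth is unknown, so what it limits could not be given.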
